A study of Mus musculus with 9 samples.

Results

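Cardiac RNA of mice labelled TAC was compared with that of wild-type mice (WT) on lncRNA and mRNA microarrays. The comparison used the 6 arrays titled TAC or WT, replicates 1 to 3 of each, out of 9 arrays in the series, and was chosen by those titles. Both groups carry the strain label B6SV129F1 wild-type, and the TAC arrays are described as surgery samples. No sham operation, time after surgery, age, chamber of the heart or animal identity is given, so that surgery itself and pressure overload cannot be told apart. The other 3 arrays, from the strain labelled Myh6-CnA, entered the model only to help estimate the spread. The labels number replicates within a group, so each array counted as 1 sample. P-values therefore measure the spread between these arrays, which may be technical.

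TAC is the usual abbreviation of transverse aortic constriction, in which a narrowing of the aorta makes the left ventricle pump against a higher pressure. The muscle thickens under this load, and genes of the fetal heart, the extracellular matrix and energy metabolism are known to change. Long non-coding RNAs (lncRNAs) are transcripts without a protein product, several of which are known to act on chromatin, splicing or transcription in heart muscle. The array carries them beside messenger RNAs (mRNAs) and reports 1 fluorescence signal per probe. In whole tissue, fewer cells of a type and less RNA per cell cannot be told apart.

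The probes are known mostly by number and not by gene, so that the TAC and WT hearts are described by kind of probe first and by named gene after that. A probe was taken as lncRNA or mRNA from the deposited table that lists it, and probes in neither table are called unlisted. The prefix of its name put a probe in a family: a numbered catalogue, lincRNA exons, mouse lincRNAs, mouse counterparts of human lincRNAs, transcripts of ultraconserved elements, GenBank cDNAs, or curated accessions. Ultraconserved elements are stretches that the human, mouse and rat genomes share without change, and lincRNAs are lncRNAs that lie between genes. Signals are log2 values minus the log2 of the array's 75th percentile, so that 0 is a fairly bright probe. A tested probe was well above its local background on all 3 arrays of at least 1 of the 3 groups, which left 44224 probes.

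The TAC arrays were dimmer than the WT arrays before scaling, with a 75th percentile of 263 to 280 intensity units against 427 to 454. In TAC 67.6% to 75.3% of the probes, and in WT 72.2% to 76.7%, were well above background. After scaling, the median difference of all tested probes was 0.32 log2 units higher in TAC, and differences are given relative to it where stated. All 6 arrays share 1 scan, but the first row of the slide holds the 3 WT arrays and TAC replicate 1, and the second row holds TAC replicates 2 and 3. No defining marker of cardiac muscle or of any of the other 8 cell types on the lists could be matched to a probe, so that the labelled tissue was not checked by markers.

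WT replicate 1 stood apart from the other WT arrays, and did so on the side of TAC. Among the 6172 probes called at least 2-fold higher in TAC, it was the highest WT array for 4058 or 65.7%, WT replicate 2 for 1235 and WT replicate 3 for 879. Among the 5842 probes called at least 2-fold lower, it was the lowest WT array for 68.7%, against 5.61% for WT replicate 2 and 25.7% for WT replicate 3. The TAC arrays shared these positions more evenly, from 18.6% to 49.7% for probes that rose and from 24.3% to 42.3% for probes that fell. Without WT replicate 1 the calls numbered 28106, of which 25205 were also called with it, and the 2-fold counts were 7337 higher and 6125 lower.

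**Figure D1:**
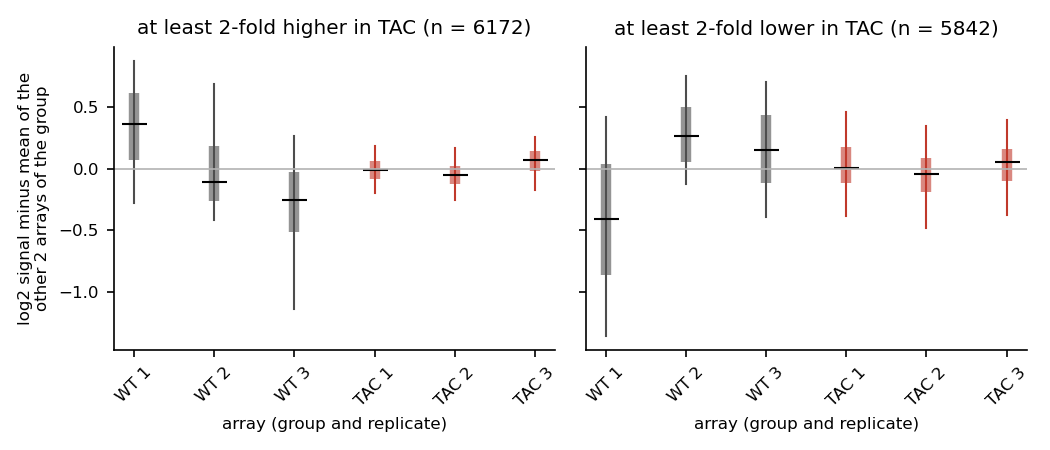
Deviation of each array (x axis: group and replicate) from the mean of the other 2 arrays of its group, in log2 signal (y axis), for probes called at least 2-fold higher (left) or lower (right) in TAC. Black dashes are medians, thick bars run from the 25th to the 75th percentile of the probes and thin lines from the 10th to the 90th; WT replicate 1 has a median of 0.36 among probes higher in TAC and -0.41 among probes lower in TAC, each towards TAC.

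Of the 44224 tested probes, 26569 or 60.1% were called changed (limma, adjusted p under 0.05), 39.6% higher and 20.5% lower in TAC. A called change of at least 2-fold was reached upwards by 14% and downwards by 13.2%, and the TAC and WT values did not overlap for 69.1%. These shares are the background against which counts below are read. In the first row of the slide alone, TAC replicate 1 against the WT arrays differed by at least 2-fold for 92.8% of the 6172 rises and 95.3% of the 5842 falls. These probes were chosen with the same 4 arrays among others, so that the shares were in large part fixed by that choice. With 1 TAC array only 6653 probes were called there, 42.9% of them higher, against 65.8% of all calls with 6 arrays.

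Large falls were more frequent among mRNA probes, and the lncRNA probes stood slightly higher in TAC than the mRNA probes did. Among lncRNA probes 57.4% were called, and their median difference was 0.40 (0.08 relative to all probes). Among mRNA probes 62.5% were called, with a median of 0.22 (-0.10 relative to all probes). The mRNA distribution was wider, with an interquartile range of 1.2 against 0.78, and the extra width was on the side of falls. Its 5th percentile was -2.56 against -1.35 for lncRNA, whereas the 95th percentiles were 1.53 and 1.55. At least 2-fold falls numbered 3349 of 19086 mRNA probes and 1602 of 23057 lncRNA probes, and 2-fold rises 2480 and 3386. The lncRNA balance depended on the processing: with normexp background correction and quantile normalization together, 1227 lncRNA probes rose and 1370 fell by 2-fold.

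The class difference was also taken on each array from the class medians, which is another measure than the median of the probe differences. The median lncRNA signal minus the median mRNA signal was -0.46, -0.70 and -0.65 on the WT arrays and -0.13, -0.12 and -0.12 on the TAC arrays. The groups did not overlap, at a mean of -0.60 ± 0.13 for WT and -0.13 ± 0.004 for TAC (SD, n = 3 arrays each). The lncRNA median was itself higher in TAC, at -1.03 ± 0.01 against -1.29 ± 0.07, and the mRNA median lower, at -0.90 ± 0.02 against -0.69 ± 0.06. The median of the mRNA probe differences was 0.22, so the measures differ in sign for mRNA. The class difference moved by 0.48 log2 units between the groups, with p = 0.1 in an exact two-sided permutation test over the arrays, which is the smallest p that 3 against 3 allow.

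Tested probes were then split into quartiles by their mean signal over the 6 arrays, quartile 1 being the dimmest. In quartiles 1 to 3 the class difference was negative on every WT array and positive on every TAC array. It moved by 0.31 in quartile 1 and by 0.39 in each of quartiles 2 and 3 (exact permutation p = 0.1 each). Within a quartile both classes have nearly the same mean over these 6 arrays. A shift between the groups therefore had to appear, in large part, as opposite signs. Over all tested probes the class difference was negative on the TAC arrays too, at -0.13, -0.12 and -0.12. In the brightest quartile the class difference moved by 0.006 log2 units, from -0.02 ± 0.05 in WT to -0.02 ± 0.02 in TAC (exact permutation p = 0.8). There the WT arrays read 0.03, -0.06 and -0.04 and the TAC arrays 0.003, -0.03 and -0.03, which overlap. The difference between the quartiles was not itself tested.

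**Figure D2:**
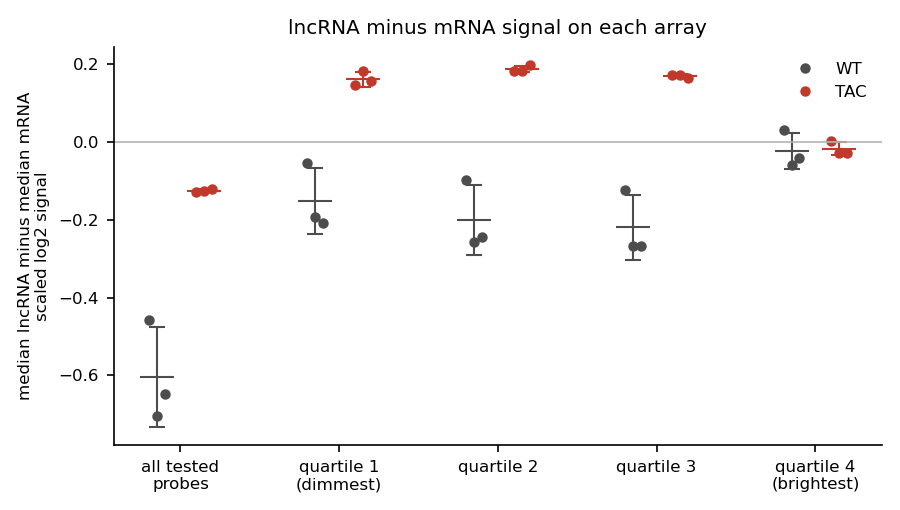
Median lncRNA signal minus median mRNA signal on each array (y axis, scaled log2 units), over all tested probes and within quartiles of brightness (x axis). Points are arrays, dashes with bars are the mean and SD of the 3 arrays of a group; WT and TAC separate over all probes and in quartiles 1 to 3, and overlap in quartile 4.

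By probe, the median lncRNA difference was 0.46, 0.40, 0.37 and 0.37 from quartile 1 to 4, and that of mRNA probes 0.25, 0.18, 0.13 and 0.34. At least 2-fold falls made up 13.3%, 18.6%, 21.7% and 15.6% of the mRNA probes from quartile 1 to 4, and 3.78%, 5.74%, 8.14% and 10.1% of the lncRNA probes. Rises of at least 2-fold were most frequent in quartile 4 in both classes, at 25.1% of mRNA and 23.9% of lncRNA probes, against 6.37% and 10.6% in quartile 2. These trends over brightness depended on how the quartiles were set. With quartiles of the signal on the 3 Myh6-CnA arrays, which belong to neither group, the lncRNA medians rose with brightness instead, at 0.36, 0.40, 0.40 and 0.47. The mRNA medians were 0.08, 0.17, 0.19 and 0.44, lowest among the dimmest probes. At least 2-fold falls were then 20.5%, 19.7%, 19.1% and 12.2% of mRNA probes and 6.17%, 5.99%, 7.42% and 8.23% of lncRNA probes. Under either grouping the lncRNA median was above the mRNA median in each quartile, by the least in quartile 4.

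**Figure D3:**
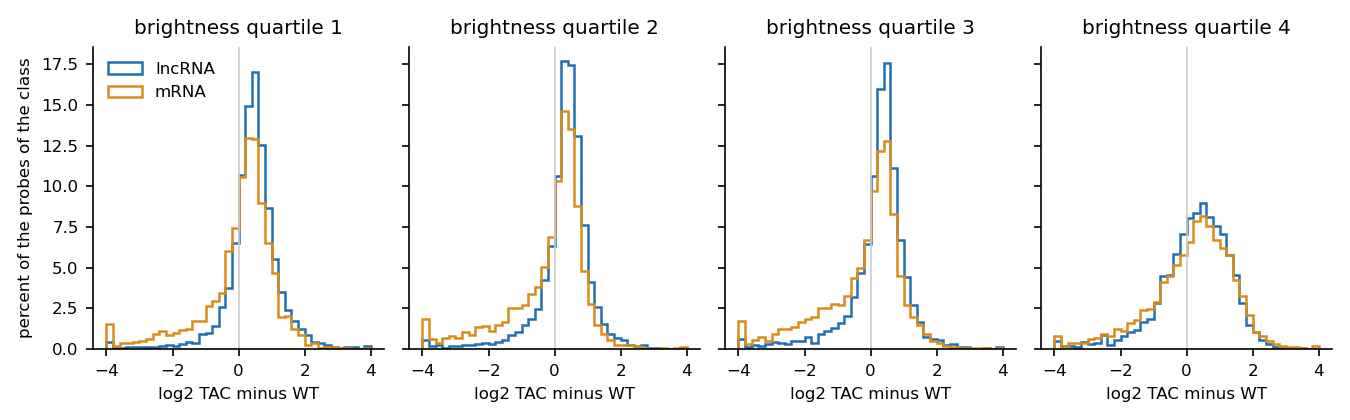
Distribution of the log2 difference TAC minus WT (x axis; values beyond 4 are drawn at the ends) as a percentage of the probes of each class (y axis), in each quartile of brightness. The mRNA curve has the longer left tail in quartiles 1 to 3, and the curves lie closer in quartile 4, where the medians are 0.37 for lncRNA and 0.34 for mRNA.

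Dim probes were the least certain. The median SD within WT was 0.31 in quartile 1 and 0.20 in quartile 4, and within TAC 0.25 and 0.07, so that WT varied more at every brightness. The 10098 probes not well above background on any of the 6 arrays lay at -6.50 ± 0.21 in WT (SD, n = 3) against -5.92 ± 0.19 in TAC, a floor 0.57 higher in TAC on the scaled axis. The part of this floor in the differences of dim probes was not tested. Background correction by normexp lowered the share of 2-fold rises among quartile 1 lncRNA probes from 13.7% to 2.43% and that of 2-fold falls among quartile 1 mRNA probes from 13.3% to 2.31%. It adds an offset of 50 to each signal, which by itself shrinks the differences of dim probes. Calls of any size did not follow in both classes. Quartile 1 lncRNA probes called higher went from 37.1% to 81.0%, and quartile 1 mRNA probes called lower from 17.6% to 8.91%. In quartile 4 normexp left 19.7% of lncRNA probes with 2-fold rises and 16% of mRNA probes with 2-fold falls.

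The leading probe of each class and quartile was taken by rule, among called probes well above background on all 6 arrays and without overlap of the groups. In quartile 1 the lncRNA probes with the largest rise and fall were ASMM9PARTA011002, at 2.81, and CB193518_P1, at -1.46. The mRNA probes there were ASMM9PARTA035553, at 2.11, and ASMM9PARTA032776, at -1.63. In quartile 2 the differences reached 4.07 for MM9LINCRNAEXON10811- and -4.08 for ASMM9PARTA012647 among lncRNAs. They reached 4.02 for ASMM9PARTA037329 and -3.81 for ASMM9PARTA040156 among mRNAs. Background correction by normexp brought these to 1.40, -0.42, 1.16 and -0.52 in quartile 1, and to 2.56, -2.62, 2.58 and -2.36 in quartile 2, in the same order.

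Of the leading lncRNA probes, 2 rested on groups that were not uniform. ASMM9PARTA051841, the quartile 3 lncRNA with the largest fall, read -0.07, 5.02 and 4.96 on the WT arrays and -2.97, -3.35 and -2.95 on the TAC arrays. The difference was -6.39, its standard error 1.18 (limma, adjusted p = 0.0019), and -8.08 without WT replicate 1. ASMM9PARTA014436, the quartile 4 lncRNA with the largest rise, read 4.35, -0.15 and -0.32 in WT and 5.51, 5.45 and 5.51 in TAC. Its difference of 4.20 (standard error 1.07) became 5.73 without WT replicate 1. Both probes have 1 WT array nearer to TAC than the other WT arrays, and it is the same array.

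The other leaders of quartiles 3 and 4 had tighter groups. ASMM9PARTA050731, lncRNA, rose by 5.91 in quartile 3, from WT values of -3.05, -2.63 and -2.84 to TAC values of 3.05, 3.05 and 3.10. ASMM9PARTA040776, mRNA, rose by 4.54 in quartile 3, and ASMM9PARTA041284, mRNA, changed there by -5.92. In quartile 4, ASMM9PARTA029246, an mRNA probe, read 0.45, 0.25 and 0.44 in WT and 6.83, 6.83 and 6.95 in TAC, the largest rise among called mRNA probes read on all 6 arrays. ASMM9PARTA013674, lncRNA, fell from 4.53, 5.02 and 4.86 to -2.51, -1.59 and -2.22, and ASMM9PARTA027231, mRNA, changed by -6.64. For these the distance between the groups was many times their spread (standard errors 0.11 to 0.36). The deposited files pair these probes with no gene.

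The families of lncRNA probes moved by nearly the same median and differed in their tails. The median difference lay between 0.39 for the catalogue and 0.45 for mouse lincRNAs. Falls of at least 2-fold were rare among mouse lincRNA probes, 0.258% of 388, and among counterparts of human lincRNAs, 0.615% of 650. They made up 8.81% of 159 lncRNA probes with a curated accession, 3.36% of 744 GenBank cDNA probes, 3.49% of 2319 lincRNA exon probes, 5.92% of 456 ultraconserved probes and 7.91% of 18341 catalogue lncRNA probes. Catalogue mRNA probes, which share the name prefix and numbering of the catalogue lncRNA probes, fell by 2-fold in 17.6% of 19008. In the catalogue the classes therefore differed within 1 family. Among curated accessions the order was the reverse, since 2.56% of 78 mRNA probes fell by 2-fold. These shares are descriptions of the probes and no test over families was made.

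**Figure D4:**
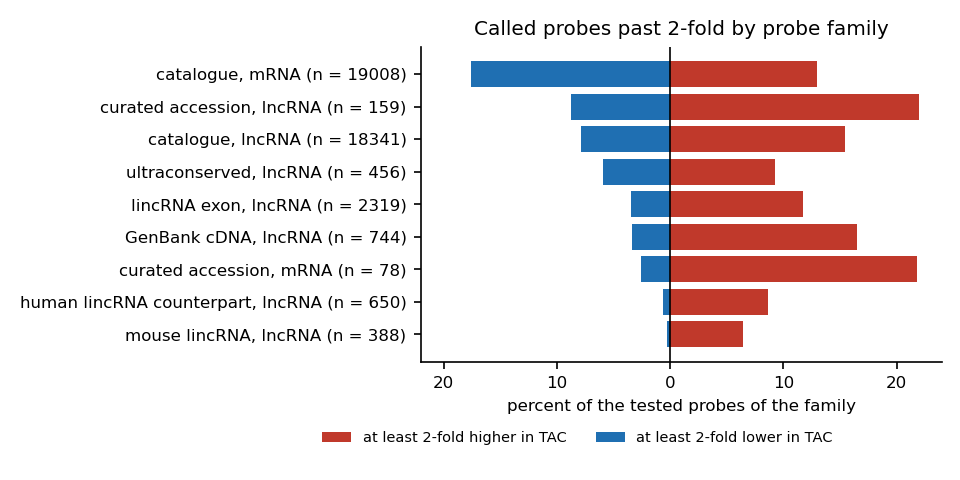
Share of the tested probes of each family and class (y axis, with the number of probes) that were called and at least 2-fold higher (red, to the right) or lower (blue, to the left) in TAC (x axis, percent). Falls run from 0.258% for mouse lincRNA probes to 17.6% for catalogue mRNA probes.

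Rises were spread differently from falls. The share of 2-fold rises was 6.44% for mouse lincRNAs, 8.62% for human counterparts, 9.21% for ultraconserved elements, 11.7% for lincRNA exons, 15.4% for catalogue lncRNAs and 16.5% for GenBank cDNAs. It was 22.0% of the lncRNA and 21.8% of 78 mRNA probes with a curated accession. The interquartile range was 0.45 for mouse lincRNAs, 0.54 for human counterparts, 0.64 for ultraconserved elements, 0.66 for lincRNA exons, 0.74 for GenBank cDNAs and 0.83 for catalogue lncRNAs, so that the narrowest families also had the fewest 2-fold changes. The families differ in brightness, with a median signal of -1.86 for mouse lincRNA and -1.09 for catalogue lncRNA probes. Within quartile 2 the 2-fold falls were still 0 of 115 mouse lincRNA and 0 of 207 human counterpart probes, against 6.67% of 4831 catalogue lncRNA probes. In quartile 4 they were 0 of 40 mouse lincRNA and 5.63% of 71 human counterpart probes. The share there was 4.0% for lincRNA exons, 6.10% for GenBank cDNAs and 10.96% for catalogue lncRNAs. Called falls of any size made up 32.5%, 29.6% and 23.4% of the mouse lincRNA, human counterpart and catalogue lncRNA probes of quartile 4. Called falls of any size were therefore not rarer in these narrow families there. With normexp the 2-fold falls were 0.773%, 0.769% and 5.75% of the mouse lincRNA, human counterpart and catalogue lncRNA probes over all quartiles.

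The brightest probes of 3 small families did not share the general rise. The median difference in quartile 4 was -0.15 for 40 mouse lincRNA probes, 0.06 for 71 human counterparts and 0.07 for 49 ultraconserved probes. It was 0.38 for the catalogue lncRNAs and 0.39 for the lincRNA exons of that quartile. In quartile 3 the same 3 families stood at 0.43, 0.44 and 0.45. Under quantile normalization their quartile 4 medians were -0.09, 0.11 and -0.11, against 0.17 for catalogue lncRNAs and 0.29 for lincRNA exons. Their median signals in quartile 4 were 1.64, 1.61 and 2.17, against 2.86 for catalogue lncRNAs and 2.17 for lincRNA exons. The difference between families was not tested, and the quartile was set by the same arrays.

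Single members show how far the families reached. Among lincRNA exons, MM9LINCRNAEXON11297+ read 4.75, 4.81 and 4.70 in WT and 0.45, 0.39 and 0.47 in TAC, a difference of -4.32 shared by every array (limma, adjusted p = 1.5e-07). MM9LINCRNAEXON10811- rose from -3.89, -3.80 and -4.0 to 0.31, 0.43 and -0.20. Among ultraconserved transcripts, uc.203+ fell from 4.07, 4.74 and 4.56 to -2.44, -2.42 and -2.32, or 115-fold (limma, adjusted p = 1.5e-07), the largest difference among the called probes of its family read on all 6 arrays. The largest rise there was that of uc.21-, 1.71 with a standard error of 0.35. The difference of uc.203+ is of the size seen in the catalogue, whereas mouse lincRNA probes stayed between 1.55 and -0.97 by the same rule.

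In the mouse lincRNA family, mouselincRNA1437+ rose from 5.48, 5.87 and 5.74 to 7.23, 7.24 and 7.25, or 2.92-fold, and its difference of 1.55 was 0.87 under quantile normalization. The largest fall among probes read on all 6 arrays, that of mouselincRNA0158-, was 1.96-fold. The 1 probe of the family called and at least 2-fold lower was not read on all of them. The human counterparts ranged from humanlincRNA1369+, at 2.04 with a standard error of 0.51, to humanlincRNA2163-, at -1.47 with a standard error of 0.10. The former was noisy in both groups, at -1.60, -0.75 and -2.84 in WT and 0.44, -0.40 and 0.88 in TAC. Among GenBank cDNA probes, BB552656_P1 rose by 2.35 and CK020084_P1 changed by -3.74. The curated transcript uc009shf, an lncRNA by its table, fell 11.8-fold.

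Some transcripts are covered by a probe for each strand, marked + or -, of which only 1 need be the transcribed strand. Both probes were tested for 1286 pairs in 4 families. The differences of the 2 strands were nearly unrelated in lincRNA exons (r = 0.07 over 850 pairs), human counterparts (r = 0.06 over 193) and mouse lincRNAs (r = 0.13 over 119), and more alike in ultraconserved elements (r = 0.37 over 124). The pairs share the arrays and the general shift. Both strands were called in 361 pairs, of which 261 rose on both strands, 24 fell on both and 76 moved in opposite directions. Under quantile normalization 67 of these 76 were again called in opposite directions. Among all tested lincRNA exon probes 43.8% were called higher and 9.81% lower, so that unrelated strands would also give pairs of each kind. Their number was not computed, and the counts are given without reading.

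The pair with the largest opposite change in each family was picked after its values were seen. For MM9LINCRNAEXON10071 the + strand probe changed by -4.61 (standard error 0.34) and the - strand probe by 0.99 (standard error 0.19). The + strand probe was well above background on all 3 WT arrays and on no TAC array, so that its difference has no fixed size. For humanlincRNA2163 both strands were read on all 6 arrays. Its - strand fell from 5.28, 5.38 and 5.49 to 3.87, 3.97 and 3.90, and its + strand rose from 1.93, 1.71 and 1.61 to 2.86, 2.83 and 2.88. For mouselincRNA1623 the - strand changed by -0.71 and the + strand by 0.88. For uc.235 the + strand changed by 1.91 and the - strand by -1.59, the former detected on 2 WT and 3 TAC arrays and the latter on 3 WT arrays and no TAC array.

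Far more probes were detected in WT alone than in TAC alone. Detection is set on the signal before scaling, which was dimmer in TAC, with a 75th percentile of 263 to 280 against 427 to 454. The part of this dimmer signal in the counts was not tested. All 3 WT arrays and no TAC array had 1272 probes well above background, of which 883 were unlisted, 277 mRNA and 112 lncRNA. The reverse held for 169 probes, of which 80 were lncRNA, 56 unlisted and 33 mRNA. On the 3 Myh6-CnA arrays, 389 of the 1272 were detected on all and 427 on none, and 113 of the 169 on all and 12 on none. The deposited tables list probes detected on at least 6 of the 9 arrays, and no unlisted probe other than the reference genes was detected on more than 5. An unlisted probe therefore had to be missing on several arrays to be unlisted, and the median of -0.76 over the 2081 unlisted tested probes is given without reading.

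For such probes only a lower bound can be given. It sets the bright group's mean against a limit for the dim one, which on each array is the lowest signal well above background, or the probe's own signal where that is higher. The bound was at least 2-fold for 722 of the 1272 and for 128 of the 169 probes, and at least 16-fold for 42 and 3. The mRNA probe ASMM9PARTA043731 read 2.81, 3.55 and 3.53 in WT and was at least 124-fold lower in TAC (limma, adjusted p = 1.5e-05). The lncRNA probe ASMM9PARTA048352 read 2.93, 3.28 and 2.99 in WT and was at least 106-fold lower. In the other direction the lncRNA probe ASMM9PARTA046041 read 1.49, 1.41 and 1.55 in TAC and was at least 50.4-fold higher (limma, adjusted p = 1.5e-07). All 3 were well above background on the Myh6-CnA arrays too.

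Gene symbols could be assigned through RefSeq accessions to 116 probes, 15 of them reference genes with 20 spots each. Of the other 101, 89 were tested, and 46 rose and 11 fell, against 39.6% and 20.5% of all tested probes. Among the 67 read well above background on all 6 arrays, 34 rose and 10 fell, with a median difference of 0.45 against 0.32 for all tested probes. Of the 8 read on none of the 6 arrays, 5 were called higher, at the floor that is itself higher in TAC. Under quantile normalization 40 of the 89 rose and 13 fell, against 33.4% and 22.4% of all tested probes. None of these genes belongs to the fetal programme, sarcomere, calcium handling, fatty acid oxidation, respiratory chain, matrix, inflammation or cardiac lncRNA lists. The pathways known for pressure overload could therefore not be read here. Many of the 101 belong to repeated gene families, whose near-identical copies a probe may not tell apart.

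The largest rises among named genes were those of a lymphoid chemokine. Ccl21 draws lymphocytes and dendritic cells that carry the receptor CCR7, and is made by lymphatic vessels, among other cells. Probes for its copies Ccl21b, Ccl21c and Gm13304 rose 7.57-fold to 7.96-fold. Gm13304 read 6.11, 5.37 and 5.25 in WT and 8.54, 8.56 and 8.61 in TAC, so that they differed by 2.99, standard error 0.21 (limma, adjusted p = 9.1e-06). Ccl21b read 5.82, 5.20 and 5.12 in WT and 8.26, 8.28 and 8.43 in TAC. The 3 probes give nearly the same values on each array and may read the same transcripts, so that they count as 1 observation. Under quantile normalization they rose by 2.16 to 2.26 log2 units.

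Most of the named genes near the Ccl21 copies rose too. RefSeq (assembly GRCm38.p6) places Gm13304, Gm13305, Ccl21b, Gm21953 and Fam205a2 in 1 stretch of chromosome 4, with at most 5 protein-coding genes between one and the next, and all 5 rose. Gm13305 rose by 1.80 (1.16 under quantile normalization), from 6.05, 5.35 and 5.15 to 7.31, 7.25 and 7.39. Fam205a2, a member of a repeated family and dim in WT at -2.05, -2.66 and -2.72, read -0.36, -0.62 and -0.56 in TAC, a difference of 1.96. Gm21953 rose by 0.78 (limma, adjusted p = 0.00035). Dhrsx, which neighbours Ccl21c in another stretch of the chromosome, did not pass the test, at 0.28 (limma, adjusted p = 0.055). In both groups the Ccl21 copies and Gm13305 were much brighter than Fam205a2, though levels of different probes are not comparable. The grouping by neighbourhood was made after the values were seen.

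Of 4 tested probes for histone H2A genes 2 rose, against 39.6% of all tested probes. H2ac18 and H2ac19 encode the core histone H2A and lie next to each other on chromosome 3, on opposite strands. H2ac18 read 6.0, 5.70 and 5.55 in WT and 8.10, 8.05 and 8.03 in TAC, or 4.96-fold higher (limma, adjusted p = 2.7e-06), a difference of 2.31 that was 1.62 under quantile normalization. H2ac19 rose by 1.37, and 0.77 under quantile normalization. Whether the probes of H2ac18 and H2ac19 read separate transcripts was not tested. H2ac23, with a difference of 0.61, and H2al2b, with 0.43, did not pass the test (limma, adjusted p = 0.25 and 0.46). The upstream 250 bases of the pair are shown because they moved together, 5′ to 3′ from RefSeq's promoter table (GRCm38.p6), H2ac18 at chr3:96245247-96245496 on the + strand and H2ac19 at chr3:96240375-96240624 on the - strand. Capitals mark the letters CCAAT and GGGCGG on either strand.
H2ac18: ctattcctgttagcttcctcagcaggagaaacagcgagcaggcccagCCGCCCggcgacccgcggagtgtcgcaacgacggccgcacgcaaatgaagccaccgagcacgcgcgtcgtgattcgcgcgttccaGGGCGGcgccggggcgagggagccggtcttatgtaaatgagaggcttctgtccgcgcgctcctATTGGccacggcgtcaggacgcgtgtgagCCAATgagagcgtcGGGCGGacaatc
H2ac19: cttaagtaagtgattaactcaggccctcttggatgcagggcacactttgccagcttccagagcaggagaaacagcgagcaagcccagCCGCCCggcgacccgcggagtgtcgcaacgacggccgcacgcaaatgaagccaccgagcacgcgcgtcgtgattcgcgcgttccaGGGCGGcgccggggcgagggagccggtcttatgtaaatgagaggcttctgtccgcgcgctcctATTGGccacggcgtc

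The upstream sequences share an unbroken run of 169 bases, which ends at base 41 before the annotated start of H2ac18 and at base 1 before that of H2ac19. Over a global alignment 206 of 290 columns, or 71.0%, were identical. Bases left unpaired by the offset of the windows count among these columns, so that the paired bases were more alike than this share. CCAAT, a box common in histone promoters, occurs 55 and 26 bases before the start of H2ac18 and 15 bases before that of H2ac19, counted to its first base. GGGCGG occurs 3 times before H2ac18 and 2 times before H2ac19, and no TATAAA was found in either window. Of all 32851 promoter windows of that length in the table, 33.8% hold CCAAT, 32.7% GGGCGG and 12.4% TATAAA. A match describes the letters only.

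Among other genes that rose, Disp1, which releases lipid-bound Hedgehog ligands from cells, read 2.85, 2.56 and 2.50 in WT and 4.61, 4.60 and 4.59 in TAC, or 3.89-fold higher. Taf1a, a subunit of the factor that places RNA polymerase I on ribosomal genes, read 3.94, 3.5 and 3.4 in WT and 5.23, 5.17 and 5.25 in TAC, or 3.03-fold higher. Both lie in a run of 6 neighbouring genes on chromosome 1. Of the others there, Hhipl2 rose by 0.66 and Brox by 0.51 (0.25 under quantile normalization), Mia3 at 0.28 did not pass the test (limma, adjusted p = 0.22), and Aida fell by 0.49 on the log2 scale. Neighbours on this chromosome did not move alike.

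A second run, of 8 genes on chromosome 13, was as mixed. Hmgcs1, an enzyme of cholesterol synthesis, rose by 1.12 (0.66 under quantile normalization), the chemokine Ccl28 by 0.88 and Tcstv1 by 0.66. B020031M17Rik rose by 2.03 with a standard error of 0.40, from a WT group of 2.57, 1.16 and 0.81 in which WT replicate 1 was highest, to 3.69, 3.48 and 3.47 in TAC. Without WT replicate 1 its difference was 2.56. Zfp131, a zinc finger transcription factor, fell by 0.52 on the log2 scale, from 3.4, 3.65 and 3.80 to 3.01, 3.00 and 3.26. Nim1k, BC147527 and Tcstv3 did not pass the test, at 0.34, -0.18 and 0.24. The RNA 4930526I15Rik, listed as lncRNA, has 2 probes, which rose by 1.52 and 1.47.

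The largest fall among named genes read on all 6 arrays was that of Csprs, the component of Sp100-rs gene. It read 0.84, 0.90 and 0.50 in WT and -2.65, -2.74 and -2.37 in TAC, or 10.1-fold lower (limma, adjusted p = 9.4e-07), and with normexp its difference was -2.24. Vamp7, a protein of vesicle fusion, read 3.34, 2.81 and 2.74 in WT and 1.64, 1.65 and 1.77 in TAC, or 2.42-fold lower. Its neighbours Spry3 and Tmlhe did not pass the test, at -0.14 and -0.17. Zf12, listed as lncRNA, read 1.29, 1.5 and 1.47 in WT and 0.65, 0.69 and 0.75 in TAC, or 1.65-fold lower. The TAC values lay below every WT value for each of Csprs, Vamp7 and Zf12.

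The smaller falls were less sure. Aida read 2.45, 2.01 and 2.00 in WT and 1.66, 1.62 and 1.71 in TAC, and Gm20738 0.56, 0.66 and 0.63 against 0.13, 0.13 and 0.16. For Ppp2r3d, a regulatory subunit of the phosphatase PP2A, 3 probes gave -0.37, -0.36 and -0.35 (limma, adjusted p = 0.035 to 0.048). Each of these calls was lost without TAC replicate 1 or 2 or WT replicate 1 or 2 in turn, and with normexp. The call of E330014E10Rik, at -0.29 (limma, adjusted p = 0.025), was lost without TAC replicate 2 or 3 or WT replicate 2 or 3. Jrkl, detected on 3 WT arrays and 1 TAC array and so outside the rule, had a difference of -5.17 (limma, adjusted p = 0.0076), while its neighbour Ccdc82 rose by 1.07.

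**Figure D5:**
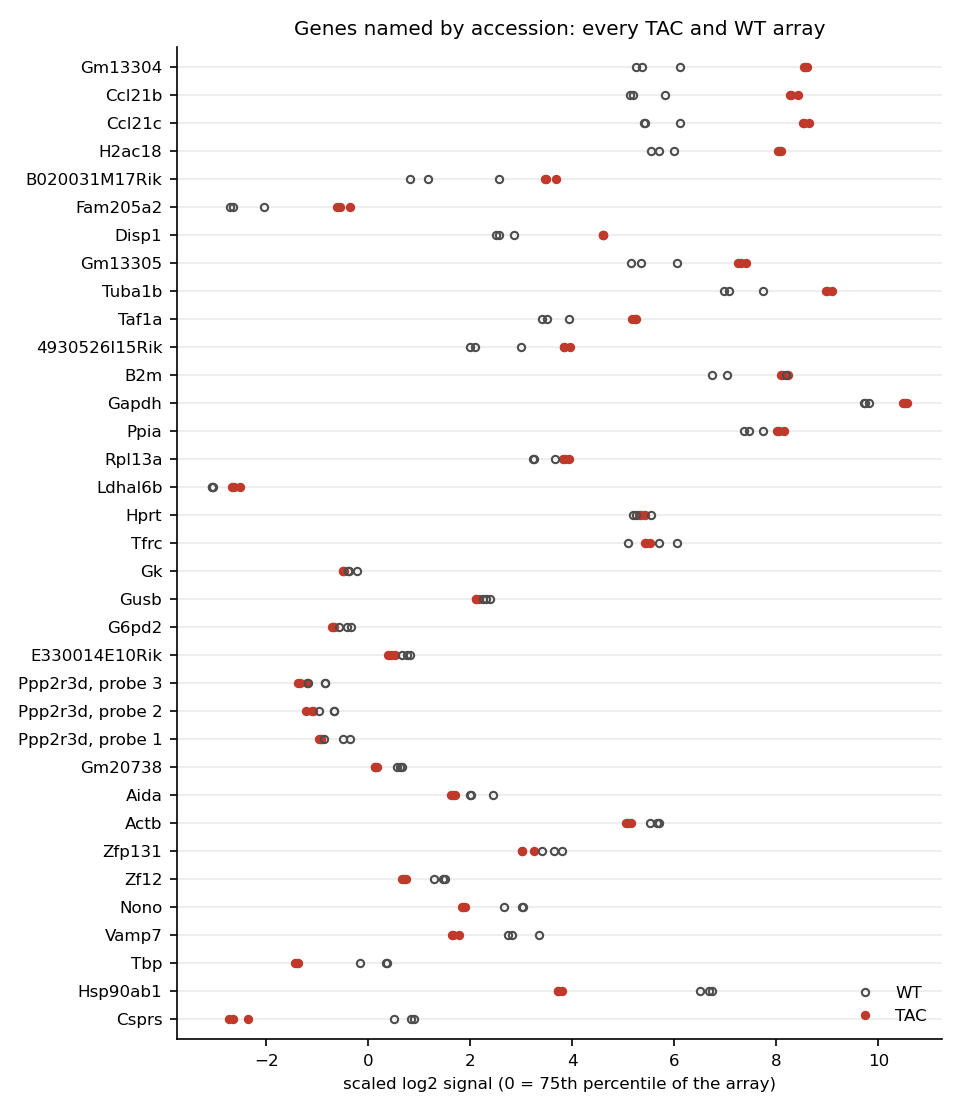
Scaled log2 signal (x axis) of every WT (open) and TAC (filled) array for the reference genes and for the named genes with the largest rises and falls (y axis, ordered by the difference TAC minus WT, largest rise at the top). The groups are apart for Gm13304, Ccl21b and Ccl21c at the top and for Csprs and Hsp90ab1 at the bottom, and overlap for B2m, Hprt and Tfrc.

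The reference genes, usually taken as steady, did not move together. Of 15, 5 rose, 4 fell and 6 did not pass the test, against a background of 39.6% higher and 20.5% lower. Under quantile normalization 3 rose and 7 fell, against 33.4% higher and 22.4% lower among all tested probes. Hsp90ab1, the constitutive form of the chaperone HSP90 in the cytosol, fell from 6.51, 6.67 and 6.73 to 3.72, 3.71 and 3.81, or 7.42-fold (limma, adjusted p = 3.6e-07). Tuba1b, an alpha tubulin of the microtubules, rose from 7.74, 7.07 and 6.97 to 8.96, 9.00 and 9.09, or 3.38-fold (limma, adjusted p = 9e-05), a difference of 1.76 that was 0.89 under quantile normalization. Actb, the actin of the non-muscle cytoskeleton, read 5.69, 5.65 and 5.52 in WT and 5.08, 5.06 and 5.16 in TAC, a fall of 0.52 on the log2 scale and of 1.04 under quantile normalization. The cytoskeleton list thus held 1 rise and 1 fall.

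Of the nuclear and ribosomal genes, Tbp, which binds the TATA box, read -0.17, 0.37 and 0.35 in WT and -1.45, -1.39 and -1.37 in TAC, or 3.00-fold lower. Nono, a nuclear protein that binds RNA and DNA, read 2.66, 3.02 and 3.03 in WT and 1.90, 1.86 and 1.84 in TAC, or 2.05-fold lower. Rpl13a, a protein of the large ribosomal subunit, rose by 0.49, or 0.17 relative to all probes. Each of these kept its direction under quantile normalization, at -1.60, -1.02 and 0.35.

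For several reference genes the direction or the call depended on the scaling, Gapdh, Ppia and Hprt among them. Gapdh, a glycolytic enzyme, read 9.82, 9.74 and 9.72 in WT and 10.52, 10.48 and 10.57 in TAC, a difference of 0.76 that was 0.02 under quantile normalization and not called there (limma, adjusted p = 0.81). Ppia, the prolyl isomerase cyclophilin A, changed by 0.55 and by -0.32 under quantile normalization, called both times. Hprt, of purine salvage, stood at 0.04 and was not called (limma, adjusted p = 0.8), but at -0.47 under quantile normalization. No direction is therefore read for Gapdh, Ppia and Hprt, though Gapdh and Ppia are counted above among the rises.

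At the cell surface, B2m, the light chain of class I histocompatibility molecules, read 8.19, 7.03 and 6.73 in WT and 8.11, 8.09 and 8.23 in TAC. Its difference of 0.83 did not pass the test (limma, adjusted p = 0.053), and was 1.26 without WT replicate 1 (adjusted p = 6.2e-05) but 0.04 under quantile normalization. Tfrc, the transferrin receptor, read 5.70, 6.06 and 5.08 in WT, a range that holds all 3 TAC values, and its difference of -0.15 was -0.69 under quantile normalization and called there (limma, adjusted p = 0.029). Of the enzymes, Gusb, Gk and G6pd2 did not pass the test, at -0.18, -0.15 and -0.25. With median scaling Gusb and G6pd2 were called, at -0.28 and -0.34 (limma, adjusted p = 0.033 and 0.021). Ldhal6b, the dimmest, rose by 0.45, a call lost without TAC replicate 1 (limma, adjusted p = 0.056). It was also lost with normexp and quantile normalization together (limma, adjusted p = 0.077). The TAC arrays varied little, with SDs of 0.004 to 0.083 over these 15 probes, whereas WT SDs ran from 0.01 to 0.77 and were the larger for 14.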

How the data were processed

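Per the file headers, the arrays were read in 1 channel by Agilent Feature Extraction (design build mm9), although the labels name a second dye. The deposited processed signal is an intensity after background subtraction and detrending per the file headers. The authors' deposited log2 tables, whose making is not given in the sources used here, lay within a median of 0.0029 of quantile-normalized signals on every array. They gave the probe classes. All their value columns matched a sample.

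Control and outlier spots (130 probes) were left out, spots averaged, and log2 signals scaled to the 75th percentile of each array. Fits used limma 3.58.1 (R 4.3.3; lmFit, eBayes) on 9 arrays with 1 coefficient per group and Benjamini-Hochberg adjustment over 44224 probes. The fit was checked on simulated data. Alternatives were normexp (offset 50, on median spot and background signals in place of the mean signals planned), quantile or median scaling, other filters, array weights, slide row or replicate number as a block, the deposited log2 tables, and each array left out. The number of arrays limits the precision.

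Named by rule were the 15 reference genes, among accession-matched genes the 10 largest called rises and falls without overlap, and the largest rise and fall per class and quartile and per family of at least 20 tested probes. Of 123 accessions looked up, 116 matched. Of 14 pathway lists with 125 genes, 15 genes matched and 8 lists had none. Of 9 marker lists with 40 genes, none matched. The members, lists and rules were chosen with earlier results of these data known.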

Additional observations from a re-analysis of the deposited data

Results flagged for a closer look

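Negative control probes, which are outside the comparisons above, gave a signal that was higher in TAC. Each of the 6 arrays read 5 of the 20 such probes well above background. On the scaled axis, probe MM9NEGATIVE018 was higher in every TAC array than in every WT array, with a mean difference of 0.773 log2 units. The same held for MM9NEGATIVE019, with 0.732, and MM9NEGATIVE013, with 0.536. The other 2 differed by 0.06 and 0.10 and overlapped between the groups. Each of these 3 differences is larger than the median of all tested probes, 0.32. Its part in the differences of dim probes was not tested.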

How the results depend on the processing

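Of 1209 recomputed values, 1073 kept their direction and side of the threshold or moved by less than the spread. The counts of called probes (26569 in all, 13240 lncRNA, 11934 mRNA) changed by over 1.5 times in 2 cases. A 2-fold minimum left 12014, 4988 and 5829. The first row of the slide alone, chosen after seeing the data and with the lone TAC array assumed to vary like the others, gave 6653, 2579 and 3392. The calls of that row were 57.6% higher for lncRNA and 37.2% for mRNA, against 76.7% and 57.9%. Leaving out 1 replicate gave 22534 to 28106, 10935 to 14046, and 10342 to 12690. The lncRNA minus mRNA shift of 0.48 was 0.38 with normexp and 0.33 with normexp and quantile normalization (the cause was not tested), and 0.43 to 0.55 with 1 array left out. The general shift of 0.32 was 0.22 under quantile normalization, 0.35 with normexp and 0.12 with both. Directions reversed for 3 genes: Ppia at -0.32 under quantile normalization with and without normexp, Tfrc at 0.072 without WT replicate 2 (down to -0.42 without WT replicate 3), and Hprt at -0.072 with normexp, -0.47 with quantile normalization, -0.46 with both, -0.057 with median scaling, -0.0067 with the slide row as a block, and -0.0025 and -0.031 without WT replicates 2 and 3 (up to 0.15 without WT replicate 1). Values for single probes crossed the threshold in 75 further cases, 25 of them in the first row alone. Same-numbered TAC and WT arrays deviated with correlations of -0.04, -0.09 and -0.08, none over 0.1, so the numbers were not taken as pairs; the replicate block gave 24610, 12148 and 11122 calls. Signal near background limits the dim quartiles.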

Other observations

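The catalogue numbers hold a pattern of their own, seen in the data and not tested. Taken in blocks of 1000 numbers, 24 of 52 blocks held only mRNA probes among the listed ones and 25 held none. Neighbouring numbers did not move together, with a correlation of 0.05 across 30098 pairs of probes, which share the arrays. Among mRNA probes numbered 32000 to 35999, 26.2% of 3375 fell by at least 2-fold and the median difference was 0.02. In the other blocks of 4000 numbers the share ran from 9.36% to 19.9%, and the median from 0.18 to 0.39. The probes of the former block were also the brightest, with a median signal of -0.07 against -1.36 to -0.63 in the others. What orders the catalogue is not given in the sources used here.

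The 20 spots of each reference gene gave the spread within an array. The median SD over spots of 1 array ran from 0.03 log2 units for Gapdh to 0.52 for Gk. For B2m it was 0.10, against an SD of 0.77 between the WT arrays and 0.07 between the TAC arrays. For Tuba1b it was 0.11, against 0.42 and 0.06. For Gk, Ldhal6b, G6pd2 and Tbp the spot SDs were 0.52, 0.41, 0.31 and 0.41. The SDs between WT arrays were 0.10, 0.01, 0.12 and 0.31, in the same order of genes. A spot SD describes single spots, whereas an SD between arrays describes means over the 20 spots. The values are therefore not on the same scale, and for Gk, Ldhal6b, G6pd2 and Tbp it is not read which spread was larger. The genes were picked after their values were seen.

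Probes for vomeronasal receptors, pheromone receptors of the nasal organ, were on the array 12 times, and 6 of the 10 tested rose and none fell, against 39.6% of all probes that rose. Their median difference was 0.64, from 0.16 to 2.09. With quantile normalization their differences ran from 0.14 to 1.85. None of the 10 lay in quartile 4, and the floor was itself 0.57 higher in TAC. The largest difference, of Vmn1r187, was not called (limma, adjusted p = 0.068) and became 0.57 with normexp and quantile normalization together. Vmn1r187 was detected on 2 WT arrays, and Vmn1r186 and Vmn1r259 on 1 WT array each. The receptors are a family of similar sequences, and which transcript each probe read was not tested.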
